A study of Mus musculus with 26 samples.

Results

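The comparison described here was between KO8 and KO7, a pair of untreated mouse embryonic stem cell lines that both carry a knockout of Hmces. The members are the 4 libraries whose columns in the count table are named KO8 or KO7, 2 of each line, out of 26 libraries in the series. Wild type (WT) cells of the same table, 2 libraries, served as a common reference for levels. All 3 groups were, per the labels, C57BL/6 embryonic stem cells kept in medium with serum on gelatin and left without ligand or inhibitor. The comparison asks which genes and programmes separate a pair of knockout lines of 1 target gene. Which exon was edited, with what guide, and whether each line is 1 clone, the available descriptions do not state. They do not name separate cultures for the libraries of a line either, so the p-values rest on a spread between libraries that may be only technical.

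HMCES binds DNA at abasic sites, where it forms a covalent protein link that shields the lesion during replication, and it was first described as a reader of 5-hydroxymethylcytosine in embryonic stem cells. Embryonic stem cells in serum are a mixed population: most cells express the pluripotency network, while small numbers drift towards primitive endoderm, epithelial or neural states. Levels are given as CPM (counts divided by the library total, per 1000000), scaled between libraries with TMM factors, and depend on the length of a gene, so they are compared between libraries and not between genes. Differences are KO8 minus KO7 on the log2 scale with their standard error (SE), and a gene was called at a Benjamini-Hochberg adjusted p under 0.05 in edgeR's quasi-likelihood test.

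Hmces itself, at chr6:87913976-87936613 of mm10, was counted at 297 and 357 CPM in WT, 125 and 127 in KO7, and 86.8 and 81.6 in KO8. Both lines lay below WT, by -1.38 ± 0.07 in KO7 and -1.96 ± 0.08 in KO8. KO8 lay below KO7 in both libraries, with a difference of -0.58 ± 0.08 (edgeR adjusted p = 1.02e-05). Reads over the gene remained in both lines, and a count over all exons does not show whether protein was made. Markers of embryonic stem cells were high in every library: the summed level of 7 of them ran from 8337 to 8972 CPM, and Pou5f1, the core pluripotency factor, stood at 2180 and 2353 CPM in WT, 2539.5 and 2520.1 in KO7, and 2578 and 2578 in KO8. Fibroblast and feeder markers summed to 48.6 to 50.1 CPM in WT, 14.35 to 14.8 in KO7 and 19.8 to 20.95 in KO8. Of these, Thy1 was the highest and Postn and Lum were at 0 in all 6 libraries. Library totals ran from 9571113 to 13512922 counts. Libraries of 1 line differed by a median of 0.0893 (KO7) and 0.0949 (KO8) on the log2 scale, and libraries of different lines by 0.203 to 0.21.

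Of 13475 genes tested, 3797 (28.2%) were called between the lines by edgeR. KO8 was higher for 1869 genes (13.9%) and lower for 1928 (14.3%), and the median over all genes was close to 0. Most differences were small: 468 genes (3.47%) were called and at least 2-fold higher in KO8, and 247 (1.83%) were called and at least 2-fold lower. A test against a minimum fold of 1.5 (edgeR's glmTreat) called 289 genes (2.14%) higher and 155 (1.15%) lower. The libraries of the lines did not overlap for 9046 genes (67.1%). Leaving out 1 knockout library left 2012 (without KO7 replicate 1), 2261 (without KO7 replicate 2), 2264 (without KO8 replicate 1) or 2213 (without KO8 replicate 2) calls, and DESeq2 gave 2416, all of them among those of edgeR. Against WT, 2558 genes (19%) were higher and 2591 (19.2%) lower in KO7, and 2594 (19.3%) were higher and 2654 (19.7%) lower in KO8. Those comparisons with WT share the same WT libraries, so their values are given side by side and not correlated.

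**Figure D1:**
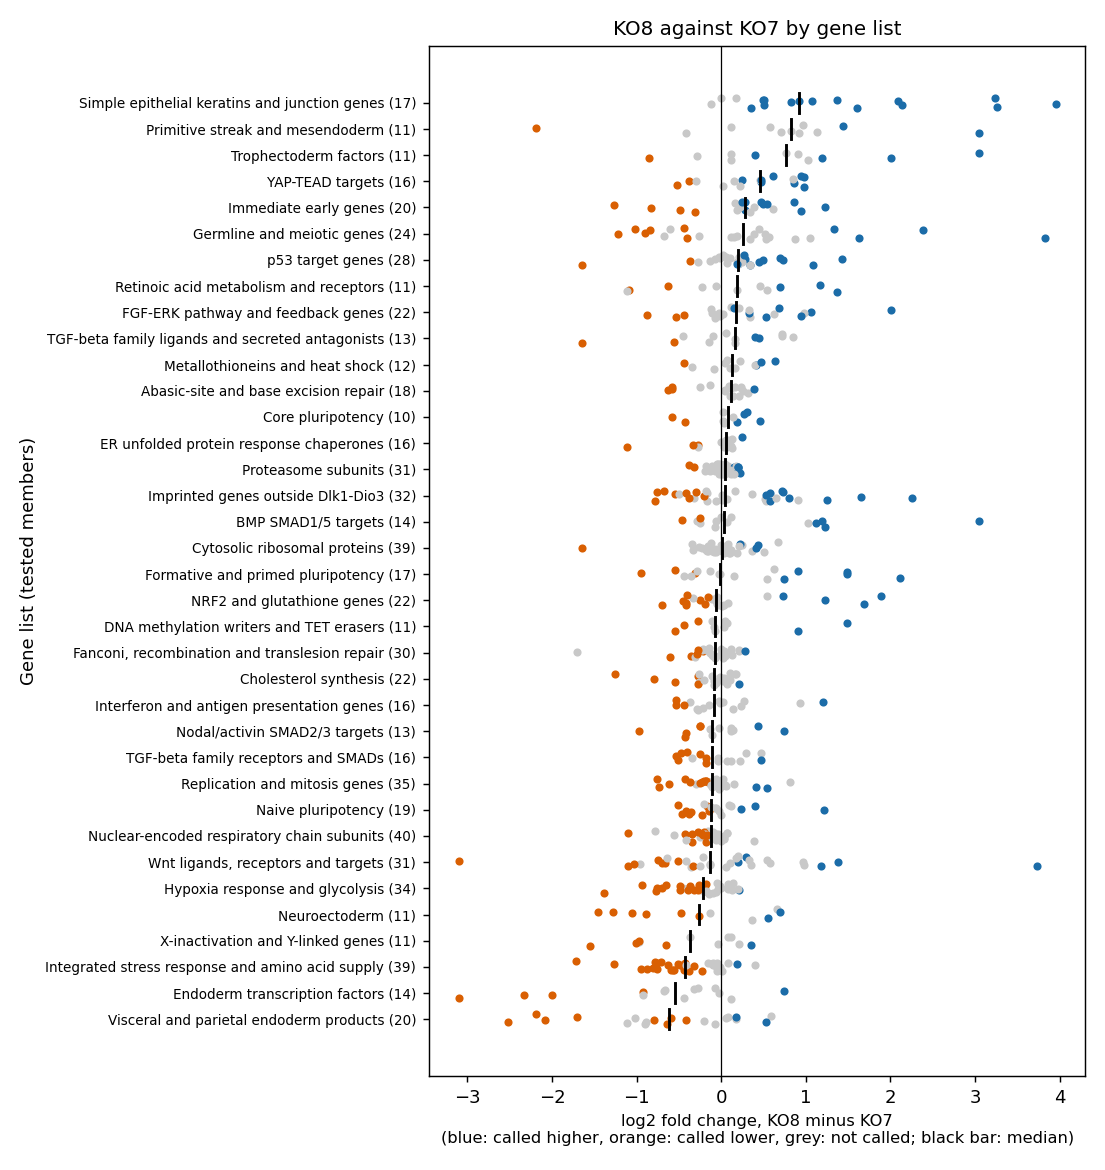
Log2 fold change, KO8 minus KO7 (horizontal axis), of every tested member of the 36 gene lists with at least 10 tested genes, ordered by median. Points in blue were called higher in KO8, orange lower, grey not called, and the black bar is the median: epithelial genes sit at the top (0.92) and products of visceral and parietal endoderm at the bottom (-0.62).

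The largest rises in KO8, among called genes with a mean of at least 5 CPM over the 4 knockout libraries, were led by S100a6, a calcium-binding protein found in many epithelia, at chr3:90612894-90614414. Its level was 15.4 and 11.5 CPM in WT, 1.59 and 2.36 in KO7, and 25.6 and 34.1 in KO8. KO7 lay below WT and KO8 above it, and the lines differed by 3.95 ± 0.23 (edgeR adjusted p = 6.54e-11). Wnt7b, a Wnt ligand at chr15:85535437-85581821, stood at 7.06 and 8.94 CPM in WT, 2.79 and 2.06 in KO7, and 32.01 and 33.9 in KO8, a difference of 3.73 ± 0.18. Lad1, a filament protein of basement membrane attachments, stood at 13.5 and 11.9 CPM in WT, 5.59 and 5.45 in KO7, and 41.8 and 39.3 in KO8, and Stard8 at 12.8 and 13.2 CPM in WT, 3.85 and 4.83 in KO7, and 30.7 and 29.7 in KO8. In each of these 4 genes WT lay between the lines. Fam167a (2.32 ± 0.23) and the calmodulin-like gene Calml4 (2.50 ± 0.26) showed the same order.

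Another order held where KO7 stayed near WT and KO8 rose above both. Sfmbt2, an imprinted Polycomb-group gene expressed from the paternal copy in extraembryonic tissue, lies at chr2:10370451-10595253 and was counted at 65.5 and 63.2 CPM in WT, 57.3 and 56.5 in KO7, and 273 and 269.8 in KO8. Its difference of 2.25 ± 0.06 (edgeR adjusted p = 1.61e-15) had the smallest standard error of the 12 largest rises. Klhl13, an adaptor of a CUL3 ubiquitin ligase, was at 74.1 and 67.9 CPM in WT, 62.4 and 67.4 in KO7, and 288 and 301 in KO8, and Nrp2, a receptor for semaphorins and VEGF, at 57.5 and 54.02 CPM in WT, 43.9 and 44.9 in KO7, and 201 and 198 in KO8. KO8 stood 4.5- to 4.77-fold above KO7 in these 3 genes. Slc40a1, the iron exporter ferroportin, differed by 2.20 ± 0.25. Htra1, a secreted serine protease, went the other way with respect to WT: it stood at 27.1 and 26.7 CPM in WT, 4.61 and 4.32 in KO7, and 25.9 and 25.02 in KO8, so that KO8 was level with WT and KO7 lay below. Aass, the first enzyme of lysine breakdown, was above WT in both lines and further in KO8, at 5.03 and 4.03 CPM in WT, 13.7 and 14.4 in KO7, and 62.8 and 61.5 in KO8.

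The largest falls in KO8 were led by Npr3, the clearance receptor for natriuretic peptides, at chr15:11839896-11907371. It was counted at 3.73 and 6.78 CPM in WT, 13.4 and 11.4 in KO7, and 1.895 and 1.94 in KO8, with a difference of -2.69 ± 0.27 (edgeR adjusted p = 2.14e-07). Cpe, carboxypeptidase E, which trims prohormones, lies at chr8:64592551-64693109 and stood at 21.01 and 15.9 CPM in WT, 46.7 and 47.3 in KO7, and 7.58 and 7.66 in KO8. The hormone gene Rln3 stood at 7.14 and 7.46 CPM in WT, 12.8 and 10.9 in KO7, and 2.84 and 2.72 in KO8, Smarcd3, a subunit of BAF chromatin remodellers, at 9.17 and 9.33 CPM in WT, 13.7 and 14.6 in KO7, and 4.001 and 4.17 in KO8, and Prph, a neuronal intermediate filament, at 16.7 and 16.8 CPM in WT, 35.3 and 28.3 in KO7, and 10.7 and 8.82 in KO8. In these 5 genes KO7 lay above WT and KO8 below. In Zfp521, Vax2 and Gfra2, KO8 was near WT and KO7 was raised. Zfp521, a zinc-finger factor of neural and blood progenitors, stood at 2.596 and 2.06 CPM in WT, 17.9 and 16.7 in KO7, and 3.05 and 2.52 in KO8, and Gfra2, a co-receptor for neurturin, at 1.38 and 2.75 CPM in WT, 10.5 and 11.5 in KO7, and 3.37 and 3.01 in KO8. The eye homeobox gene Vax2, at chr6:83711239-83738313, stood at 12.6 and 15.1 CPM in WT, 62.98 and 61.9 in KO7, and 14.1 and 13.9 in KO8, and its antisense neighbour Vax2os differed by -2.00 ± 0.13; no strand setting is recorded for the counting, so the reads of this pair cannot be told apart. Cdk5r2, an activator of CDK5, was at WT level in KO7 and lower in KO8, with 9.005 and 7.76 CPM in WT, 8.38 and 8.43 in KO7, and 2.63 and 2.72 in KO8. Cpe, Rln3 and Gdf15, the stress-induced TGF-beta family ligand (-1.65 ± 0.18), lie in the part of chromosome 8 described further on.

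Genes of simple epithelia were higher in KO8 as a group. Of 17 tested keratin, claudin, cadherin and annexin genes, 14 were called higher and 0 lower, and 8 were at least 2-fold higher, with a median difference of 0.92 (all genes tested: 13.9% higher). Krt18, a keratin of simple epithelia, stood at 6.25 and 6.68 CPM in WT, 2.42 and 2.26 in KO7, and 10.5 and 10.2 in KO8. Its partner Krt8 stood at 5.35 and 6.38 CPM in WT, 6.27 and 5.14 in KO7, and 9.898 and 11.9 in KO8, and Krt19 at 9.73 and 8.15 CPM in WT, 1.59 and 1.13 in KO7, and 5.896 and 6.01 in KO8. The libraries of the lines did not overlap in any of the 3, as was so for 67.1% of all genes, with differences of 2.13 ± 0.22 for Krt18, 0.92 ± 0.19 for Krt8 and 2.09 ± 0.28 for Krt19.

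Genes of cell-cell junctions were in part higher in KO8. Epcam, an adhesion molecule of epithelia, was counted at 90.9 and 84.6 CPM in WT, 32.9 and 28.6 in KO7, and 79.9 and 79.7 in KO8, with a difference of 1.37 ± 0.09 (edgeR adjusted p = 2.61e-10). The tight junction gene Cldn7 stood at 12.2 and 9.43 CPM in WT, 3.55 and 3.19 in KO7, and 11.4 and 9.41 in KO8 and Cldn4 at 149.6 and 127 CPM in WT, 97.3 and 100.3 in KO7, and 174 and 177 in KO8. Cdh1, which encodes E-cadherin, was also higher, at 557 and 529.96 CPM in WT, 478 and 484 in KO7, and 693 and 667 in KO8, although it lies on the stretch of chromosome 8 where most genes were lower in KO8. Anxa3, a membrane-binding annexin, had 2.51 and 1.87 CPM in WT, 0.378 and 0.411 in KO7, and 3.47 and 4.07 in KO8, and Krt7 had 1.54 and 0.884 CPM in WT, 0.227 and 0.103 in KO7, and 1.895 and 1.65 in KO8. The claudin gene Cldn3 (-0.0025 ± 0.27), the desmosomal plakophilin gene Pkp2 (0.17 ± 0.08) and the galectin gene Lgals3 (-0.12 ± 0.10) were not called. For most of these genes the lower line was KO7: 13 of the 17 were called below WT in KO7 and 4 in KO8, while 1 was called above WT in KO7 and 8 in KO8. The medians against WT were -1.15 in KO7 and 0.33 in KO8. Dsp was no longer called without KO8 replicate 1 (adjusted p = 0.07), nor Anxa2 without KO7 replicate 2 (adjusted p = 0.0796).

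**Figure D2:**
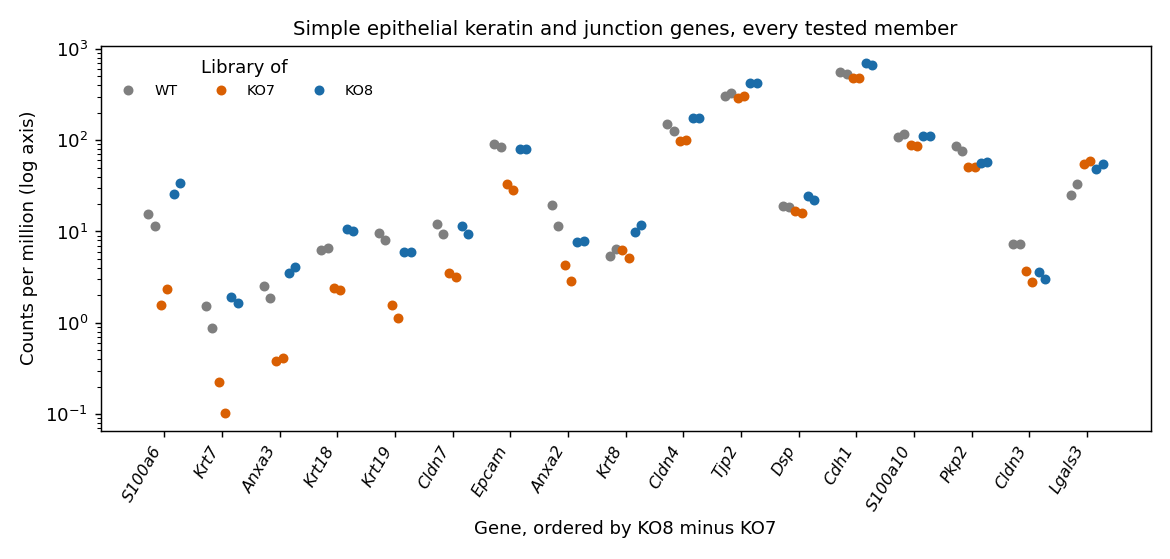
CPM on a log axis of the 17 tested genes of simple epithelial keratins and junctions in every library, ordered by KO8 minus KO7. In 15 of the 17 both KO8 points (blue) lie above both KO7 points (orange), where 67.1% of all genes did not overlap in either direction, and in the 7 genes from S100a6 to Epcam the WT points (grey) lie above both KO7 points.

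Trophectoderm factors, which specify the outer epithelium of the blastocyst, had 4 called higher and 1 lower of 11 (all genes tested: 13.9% higher, 14.3% lower), median 0.76. The median was 0.46 without KO8 replicate 2 and 0.27 with a filter of 5 CPM in 2 libraries, and the lower call, Tfap2a, was lost by DESeq2, by that filter and without any 1 of the knockout libraries. Fgfr2, the receptor through which FGF acts on trophoblast stem cells, stood at 7.06 and 6.58 CPM in WT, 6.04 and 6.27 in KO7, and 26.3 and 23.1 in KO8, and Tfap2c, an AP-2 factor of trophoblast and germ cells, at 57.3 and 54.8 CPM in WT, 60.2 and 57.1 in KO7, and 136 and 131 in KO8. For both, KO7 was level with WT and KO8 was higher, by 2.00 ± 0.15 and 1.19 ± 0.07. Hand1, a factor of trophoblast giant cells and mesoderm, was at a low level throughout, with 1.22 and 2.36 CPM in WT, 0.151 and 0.514 in KO7, and 2.21 and 3.01 in KO8. The defining gene Elf5 had at most 0.105 CPM in any library, and Eomes was not called between the lines, at 8.92 and 8.45 CPM in WT, 6.95 and 5.86 in KO7, and 7.27 and 6.69 in KO8. The summed level of 7 trophectoderm markers, keratins among them, was 14.2 to 16.6 CPM in KO7, 22.6 to 24.3 in WT and 31.6 to 31.9 in KO8. In bulk libraries a smaller number of cells of a type and less RNA per cell cannot be told apart.

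Targets of YAP and TEAD, which report cell density and tension, had 8 called higher, 2 lower and 6 not called of 16 (all genes tested: 13.9% higher, 14.3% lower), median 0.46, with 1 lower without KO7 replicate 1 or without the segments of chromosomes 6 and 8. Ccn2, a matrix protein and a standard YAP target, stood at 22.4 and 27.1 CPM in WT, 20.6 and 19.6 in KO7, and 38.96 and 38.9 in KO8, and Ptpn14, a phosphatase that binds YAP, at 80.4 and 78.5 CPM in WT, 45.2 and 47.4 in KO7, and 95.5 and 86.9 in KO8. The lines differed in these genes by 0.95 ± 0.11 and 0.98 ± 0.08. The smooth muscle cytoskeletal genes Acta2 and Tagln were higher as well. Acta2, smooth muscle actin, stood at 0.487 and 0.982 CPM in WT, 0.6797 and 0.514 in KO7, and 6.002 and 5.72 in KO8, a difference of 3.24 ± 0.37. Tagln, transgelin, stood at 6.73 and 5.11 CPM in WT, 5.89 and 4.52 in KO7, and 20.4 and 21.6 in KO8, a difference of 1.99 ± 0.18. Vim, the mesenchymal intermediate filament vimentin, had the opposite order, at 182 and 218 CPM in WT, 394 and 388 in KO7, and 217 and 215 in KO8, with KO7 raised and KO8 near WT. Among the fibroblast and feeder markers summed above, Postn and Lum were at 0. Thy1, the highest of them, stood at 33.1 and 35.36 CPM in WT, 9.818 and 10.28 in KO7, and 13.16 and 15.13 in KO8. The part of feeder cells in these values was not tested further.

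Of 20 tested products of visceral and parietal endoderm, 8 were called lower in KO8 than in KO7, 2 higher and 10 not called (all genes tested: 13.9% higher, 14.3% lower). With 4 at least 2-fold lower, the median was -0.62, or -0.41 without KO7 replicate 1, and 1 higher call was left without any 1 of the knockout libraries. Against WT, 15 of the 20 were called lower in KO7 and 17 in KO8. Dab2, an endocytic adaptor of visceral endoderm, had 36.2 and 33.6 CPM in WT, 9.06 and 11.3 in KO7, and 3.58 and 2.62 in KO8. Cubn, the receptor for vitamin B12 complexes that works with Dab2, had 21.98 and 20.9 CPM in WT, 6.12 and 5.86 in KO7, and 1.26 and 1.55 in KO8. Srgn, a secretory granule proteoglycan, had 20.6 and 18.95 CPM in WT, 3.096 and 4.11 in KO7, and 0.737 and 0.485 in KO8. In these 3 genes the levels fell from WT to KO7 and again to KO8, with edgeR adjusted p of 2.89e-06, 3.83e-06 and 2.71e-05 between the lines. Collagen IV genes of basement membrane followed, Col4a1 at 112 and 104 CPM in WT, 47.6 and 50.7 in KO7, and 31.2 and 31.7 in KO8 and Col4a2 at 61.2 and 53.5 CPM in WT, 22.5 and 22.9 in KO7, and 13.5 and 12.6 in KO8. Podxl, a sialomucin, was higher in KO8 (0.53 ± 0.08).

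Among 14 endoderm transcription factors 4 were called lower, 1 higher and 9 not called (all genes tested: 13.9% higher, 14.3% lower). Their median was -0.55, or -0.36 without KO8 replicate 1 and -0.19 with a filter of 5 CPM in 2 libraries. Sox17, a primitive and definitive endoderm factor, stood at 4.54 and 3.73 CPM in WT, 1.96 and 1.65 in KO7, and 0.211 and 0.194 in KO8, and Foxq1, a forkhead factor, at 8.84 and 8.54 CPM in WT, 2.64 and 1.95 in KO7, and 0.421 and 0.485 in KO8. These are low levels, and the fitted differences of -3.10 ± 0.58 and -2.34 ± 0.44 rest on few counts in KO8. The other lower calls, Foxa2 and Gata6, were lost by DESeq2, by the fit without KO7 replicate 1 and by the fit without KO8 replicate 2, which left 2 each. Gata4 was not called between the lines, at 18.5 and 13.8 CPM in WT, 6.04 and 7.197 in KO7, and 6.21 and 4.36 in KO8. Otx2, which also marks formative cells, was the factor called higher (0.74 ± 0.11). Over 6 endoderm markers the summed level was 69.2 to 76.4 CPM in WT, 26.3 to 28.2 in KO7 and 12.02 to 14.4 in KO8. Against WT the median of the 20 endoderm products was -1.07 in KO7 and -1.73 in KO8.

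The integrated stress response is the programme by which ATF4 raises genes for amino acid uptake and synthesis when translation initiation is restrained. Of its 39 tested members, 24 (61.5%) were called lower in KO8 and 1 higher, with a median of -0.42, against 14.3% lower among all genes. Outside chromosome 8 from 30 Mb and chromosome 6 from 60 Mb, 20 of 35 were lower. Atf4 itself stood at 667 and 676 CPM in WT, 819 and 866 in KO7, and 567 and 612 in KO8, a difference of -0.51 ± 0.05 (edgeR adjusted p = 3.44e-07). Its partner genes Atf3, at 13.1 and 13.4 CPM in WT, 9.14 and 11.8 in KO7, and 3.16 and 5.33 in KO8, and Cebpg, at 55.8 and 50.6 CPM in WT, 66.5 and 65.4 in KO7, and 44.96 and 48.9 in KO8, were lower too. In KO8 both libraries lay below both KO7 libraries for 30 of the 39 genes (67.1% of all genes did not overlap, in either direction).

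ATF4 binds DNA together with C/EBP proteins at a composite element, written here as TGATGNAA and searched on both strands of the RefSeq promoters (GRCm38.p6, 250 bases before to 50 after the start). It was found in 11 of the 32 members that had a promoter in the table (34.4%), against 2.6% of 10642 tested genes and 3.97% of all 32851 promoters. Of the 22 members called lower in KO8 that had a promoter, 9 (40.9%) held it, and of the 10 others 2 did. The windows below show the match in capitals with 20 bases on either side, 5′ to 3′ on the strand of the gene; most matches here are on the other strand and read as its reverse complement. A match describes the letters only, and binding was not measured in these libraries. The list holds genes of the ATF4 programme, so an excess of matches over all genes was built in and does not bear on the lines. Matches in Trib3, Aars and Gars are not shown. The first 7 belong to genes that were lower in KO8, and Slc7a11 holds a pair of matches and was not called (-0.05 ± 0.55, edgeR adjusted p = 0.957).
Atf3, chr1:191183416-191183463, minus strand: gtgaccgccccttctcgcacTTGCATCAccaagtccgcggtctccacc
Chac1, chr2:119351029-119351076, plus strand: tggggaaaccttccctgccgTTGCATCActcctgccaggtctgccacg
Asns, chr6:7693205-7693252, minus strand: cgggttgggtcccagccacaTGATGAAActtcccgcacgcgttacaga
Pck2, chr14:55540143-55540190, plus strand: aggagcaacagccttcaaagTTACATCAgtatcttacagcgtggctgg
Vldlr, chr19:27216800-27216847, plus strand: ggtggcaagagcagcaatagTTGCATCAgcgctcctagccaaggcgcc
Nupr1, chr7:126625553-126625600, minus strand: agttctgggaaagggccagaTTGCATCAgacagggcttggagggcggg
Pycr1, chr11:120643824-120643871, minus strand: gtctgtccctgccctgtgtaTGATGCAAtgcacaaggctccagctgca
Slc7a11, chr3:50443633-50443699, minus strand: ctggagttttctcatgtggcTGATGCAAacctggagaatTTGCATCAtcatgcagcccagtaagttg

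Genes for amino acid synthesis stood as follows. Asns, asparagine synthetase, was counted at 371 and 325 CPM in WT, 258 and 259.6 in KO7, and 154 and 153 in KO8, a difference of -0.75 ± 0.06 (edgeR adjusted p = 1.79e-08); it lies on the first part of chromosome 6, where many genes were lower in KO8. In the serine and glycine branch Psat1 stood at 515 and 451 CPM in WT, 458 and 456 in KO7, and 337 and 339.7 in KO8 and Shmt2, its mitochondrial hydroxymethyltransferase, at 347 and 326 CPM in WT, 307 and 316 in KO7, and 236 and 229 in KO8. In the proline branch Aldh18a1 stood at 149 and 124 CPM in WT, 110.03 and 121 in KO7, and 75.6 and 73.7 in KO8 and Pycr1 at 87.9 and 70.1 CPM in WT, 59.1 and 60.6 in KO7, and 42.5 and 38.6 in KO8. All 5 enzymes were lower in KO8 than in KO7 and than in WT, with differences between the lines of -0.42 to -0.75. Chac1, which degrades glutathione and is among the most responsive ATF4 targets, had a wider spread between replicates, at 80.5 and 73.6 CPM in WT, 67.7 and 86.4 in KO7, and 37.6 and 52.5 in KO8, and a difference of -0.76 ± 0.12. Trib3, a pseudokinase that feeds back on ATF4, was called (-0.32 ± 0.07) but not without KO8 replicate 1 (adjusted p = 0.0779).

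Amino acid transporters gave the other part of the list. Slc7a5, the light chain of the large neutral amino acid carrier, stood at 731 and 748 CPM in WT, 913 and 946 in KO7, and 576 and 562 in KO8, and its heavy chain Slc3a2 at 485 and 498 CPM in WT, 549 and 543 in KO7, and 395 and 400.5 in KO8. The arginine and lysine carrier Slc7a1 stood at 356 and 356 CPM in WT, 321 and 337 in KO7, and 226 and 217 in KO8. KO7 was above WT for Slc7a5 and Slc3a2 and KO8 below, while for Slc7a1 KO8 lay below both. Slc7a5 and the alanyl-tRNA synthetase gene Aars (-0.60 ± 0.05) lie on chromosome 8 from 30 Mb, as does Gpt2 (-0.80 ± 0.10), which makes alanine. Chaperones of the endoplasmic reticulum, a separate arm of the stress response, did not move together. Of 16, 3 were lower and 1 higher, median 0.06 (all genes tested: 13.9% higher, 14.3% lower). All 3 lower calls lie on chromosomes 6 and 8, and 0 were left in the fit without chromosomes 6, 8 and Y. Of 13 members outside the segments of chromosomes 6 and 8, 1 was lower. Among the lower calls, Herpud1, a factor of protein degradation at the reticulum, stood at 37.2 and 37.8 CPM in WT, 54.1 and 63.02 in KO7, and 24.3 and 29.3 in KO8.

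**Figure D3:**
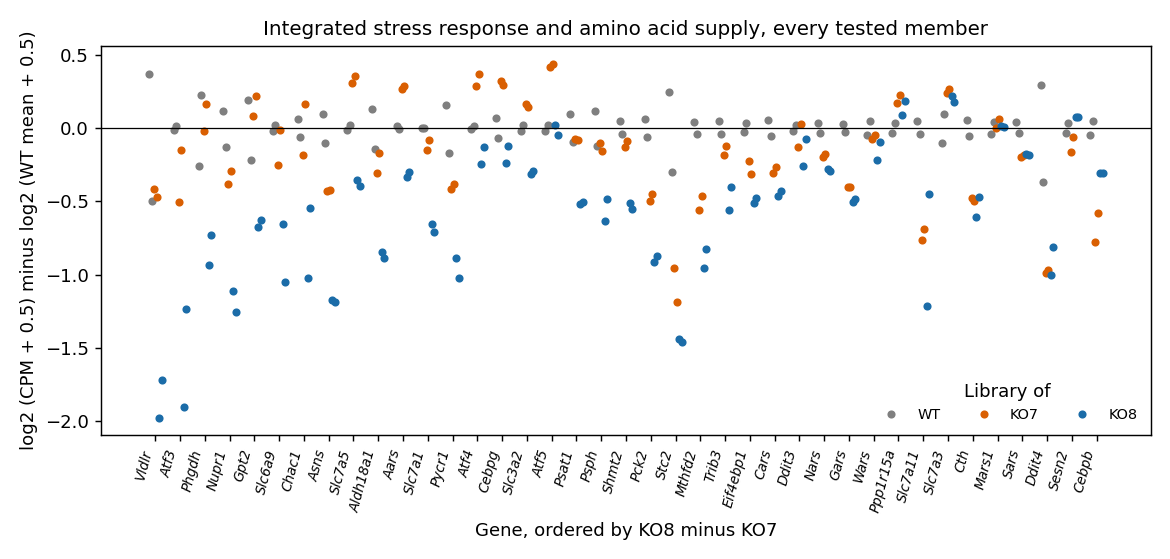
Level of each of the 39 tested members of the integrated stress response list in every library, as log2 (CPM + 0.5) minus that of the WT mean, ordered by KO8 minus KO7. KO8 points (blue) lie under KO7 points (orange) over most of the plot, while KO7 lies above WT for some genes, such as Atf4 and Slc7a5, and below it for others, such as Asns.

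Genes of the hypoxia response and glycolysis were called lower in KO8 for 15 of 34 and higher for 1 (all genes tested: 13.9% higher, 14.3% lower), with a median of -0.21; without KO7 replicate 1 the lower calls were 7. Vegfa, the vascular growth factor, stood at 97.4 and 72.4 CPM in WT, 65.1 and 76.8 in KO7, and 38.5 and 43.8 in KO8, and Slc16a3, the lactate exporter, at 328 and 233 CPM in WT, 186 and 183 in KO7, and 121 and 114 in KO8. Ldha, lactate dehydrogenase, stood at 954 and 819 CPM in WT, 786 and 748 in KO7, and 539.95 and 558 in KO8, and the glycolytic enzymes Pfkl and Aldoa differed by -0.49 ± 0.07 and -0.38 ± 0.07. P4ha1, a collagen prolyl hydroxylase induced by HIF, stood at 65.5 and 46.6 CPM in WT, 37.4 and 32.1 in KO7, and 22.7 and 18.6 in KO8. By the fitted group levels all of these were ordered WT, KO7, KO8 from high to low, and the medians against WT were -0.38 in KO7 and -0.69 in KO8. The WT libraries themselves differed more than the knockout pairs did, by a median of 0.139 on the log2 scale. Cholesterol synthesis had 5 lower and 1 higher of 22, and 8 lower without WT replicate 1 or WT replicate 2, among them Dhcr7, the last enzyme of the pathway (-0.55 ± 0.07).

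Transcripts of target and pathway genes of the TGF-beta family were divided, and signalling itself was not measured. Of 13 Nodal and activin targets 5 were called lower and 2 higher (all genes tested: 13.9% higher, 14.3% lower), median -0.10 (-0.04 without KO7 replicate 1), and the lower calls fell to 3 without KO7 replicate 2 or KO8 replicate 1. Lefty2, the feedback inhibitor of Nodal, stood at 129 and 144 CPM in WT, 169.6 and 158 in KO7, and 83.7 and 83.01 in KO8, above WT in KO7 and below it in KO8, with a difference of -0.98 ± 0.07 (edgeR adjusted p = 1.53e-09). Tdgf1, the Nodal co-receptor Cripto, stood at 813 and 621 CPM in WT, 589 and 558 in KO7, and 416 and 437 in KO8. Skil, which represses SMAD2 and SMAD3, was higher in KO8, at 212 and 189 CPM in WT, 153 and 163 in KO7, and 215 and 211 in KO8. Inhbb, a subunit of activin B, stood at 345 and 359.9 CPM in WT, 406 and 416 in KO7, and 279 and 280.1 in KO8.

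Of 14 BMP targets 4 were higher, each at least 2-fold, and 2 lower (all genes tested: 13.9% higher, 14.3% lower). The median of 0.03 was 0.11 without KO7 replicate 2 and 0.098 without KO8 replicate 2, and Smad7 was no longer among the lower calls without KO7 replicate 2 or KO8 replicate 1. Id3, an inhibitor of bHLH factors and a direct BMP target, stood at 21.5 and 28.3 CPM in WT, 21.7 and 19.6 in KO7, and 48.8 and 48.8 in KO8. Smad6, the inhibitory SMAD of the BMP arm, stood at 13.5 and 13.3 CPM in WT, 9.06 and 9.05 in KO7, and 20.4 and 19.01 in KO8. Both KO8 libraries were above WT for these genes, and the lines differed by 1.23 ± 0.12 and 1.12 ± 0.14 (edgeR adjusted p = 7.94e-08 and 3.94e-06). Hand1 and Tfap2c, given above, were the other higher calls. Tbx3, a T-box factor of naive cells, was lower, at 391 and 424 CPM in WT, 353 and 360.2 in KO7, and 257 and 261 in KO8. The ligand gene Bmp4 was higher in KO8, at 159 and 196 CPM in WT, 144 and 145 in KO7, and 189 and 193 in KO8. Among 16 receptors and SMADs 7 were lower and 1 higher, the lower calls numbering 3 or 4 without any 1 of the knockout libraries. Acvr1b, the type I receptor of Nodal and activin, stood at 114 and 102 CPM in WT, 97.05 and 104 in KO7, and 70.02 and 73.99 in KO8, and Smad3 at 30.7 and 26.5 CPM in WT, 39.1 and 42.4 in KO7, and 28.3 and 27.8 in KO8. Smad1 (-0.51 ± 0.10) lies on chromosome 8 from 30 Mb, where the median gene differed by -0.36.

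Naive pluripotency genes had 8 called lower and 3 higher of 19 (all genes tested: 13.9% higher, 14.3% lower), median -0.12, with 5 lower without KO7 replicate 1, without KO8 replicate 1, or without the segments of chromosomes 6 and 8. The 3 higher calls became 1 by DESeq2, without KO7 replicate 1 and without KO8 replicate 2. Klf4, a naive factor held up by LIF signalling, stood at 499.8 and 489 CPM in WT, 381 and 395 in KO7, and 292 and 292 in KO8, and Tdh, threonine dehydrogenase, at 129 and 141 CPM in WT, 220.4 and 208 in KO7, and 156 and 146 in KO8. Tcl1, a cofactor of AKT, stood at 139.5 and 135 CPM in WT, 117 and 115 in KO7, and 86.6 and 92.1 in KO8. Zfp42, the classic marker Rex1, was lower in KO8 by -0.36 ± 0.05 and lies on chromosome 8 from 30 Mb. These falls were below 2-fold. The higher calls were Dppa3, Nr0b1 and Dppa5a, of which Dppa3 was past 2-fold. Over the alternative fits Dppa3 ran from 0.83 to 1.95. Its call was lost by DESeq2 and without any 1 of the knockout libraries. Among 10 core genes 4 were higher and 2 lower, and the 4 became 1 without KO7 replicate 1 and 2 without KO8 replicate 2. Lin28a, which blocks let-7 maturation, stood at 454 and 551 CPM in WT, 502 and 526 in KO7, and 704 and 712 in KO8, and its paralogue Lin28b had the opposite order, at 69.1 and 61.9 CPM in WT, 82.998 and 83.7 in KO7, and 57.1 and 54.1 in KO8.

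Formative and primed genes had 5 higher and 3 lower of 17 (all genes tested: 13.9% higher, 14.3% lower). With a median of -0.01, the list did not shift as a whole while single members differed widely. The DNA methyltransferase genes were divided. Dnmt3l, a catalytically inactive partner of the others, stood at 292 and 302 CPM in WT, 114 and 113 in KO7, and 317 and 319.5 in KO8, a difference of 1.49 ± 0.06 (edgeR adjusted p = 1.55e-13). Dnmt3b stood at 184 and 193 CPM in WT, 162 and 174 in KO7, and 308 and 321 in KO8, a difference of 0.91 ± 0.06. Dnmt3a stood at 265 and 289 CPM in WT, 342 and 354 in KO7, and 229 and 246 in KO8, with KO8 lower by -0.55 ± 0.06. KO7 was reduced for Dnmt3l, KO8 raised for Dnmt3b, and Dnmt3a lay on opposite sides of WT in the lines. Tet2, which oxidises 5-methylcytosine, stood at 284 and 306 CPM in WT, 398 and 413 in KO7, and 316 and 281 in KO8. Cldn6, a claudin of epiblast, stood at 53.2 and 40.3 CPM in WT, 11.5 and 10.7 in KO7, and 46.2 and 50.4 in KO8, and Grhl2, a grainyhead factor of epithelial enhancers, at 24.1 and 32.02 CPM in WT, 23.4 and 28.6 in KO7, and 69.1 and 75.2 in KO8. Sall3 was above WT in both lines and higher in KO7, at 6.25 and 8.25 CPM in WT, 41.2 and 42.6 in KO7, and 22.1 and 21.3 in KO8.

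Of 11 neural genes tested, 6 were called lower and 2 higher in KO8 than in KO7 (all genes tested: 13.9% higher, 14.3% lower), median -0.27. That median was -0.16 without KO8 replicate 2 and -0.13 without chromosomes 6, 8 and Y, and the higher calls were 1 without KO7 replicate 2. Against WT, 7 of the 11 were called higher in KO7 and 6 in KO8, with medians of 0.70 and 0.44. Gap43, a growth cone protein, stood at 27.7 and 30.6 CPM in WT, 84.8 and 87.2 in KO7, and 29.8 and 32.97 in KO8, and Sox4, a SoxC factor of neural precursors, at 103 and 102 CPM in WT, 184 and 194 in KO7, and 93.1 and 88.05 in KO8. Ncam1, the neural cell adhesion molecule, stood at 46.97 and 39.2 CPM in WT, 65.4 and 74.4 in KO7, and 41.1 and 34.04 in KO8. KO8 was nearer to WT than KO7 was for these 3 genes, and the lines differed by -1.45 ± 0.09, -1.06 ± 0.06 and -0.89 ± 0.10 (edgeR adjusted p = 1.42e-10, 1.22e-10 and 1.48e-06). Sox1, the earliest neuroectoderm marker, stood at 14.7 and 17.9 CPM in WT, 31.3 and 31.4 in KO7, and 14.6 and 11.3 in KO8, and Nes, nestin, had the opposite order, at 17.4 and 18.8 CPM in WT, 21.4 and 18.1 in KO7, and 31.3 and 32.97 in KO8. Sox1 lies on chromosome 8 before 30 Mb.

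Targets of p53 were called higher in KO8 for 11 of 28 and lower for 2 (all genes tested: 13.9% higher, 14.3% lower), median 0.20. Perp, a p53 target that is also a protein of desmosomes, stood at 60.2 and 63.1 CPM in WT, 40.6 and 41.9 in KO7, and 108 and 112 in KO8. Phlda3, an inhibitor of AKT, stood at 122 and 123 CPM in WT, 80.96 and 77.005 in KO7, and 132 and 130.4 in KO8, and Trp53inp1 at 265 and 221 CPM in WT, 159.9 and 156 in KO7, and 259 and 252 in KO8. The ubiquitin ligase gene Mdm2 stood at 168 and 154 CPM in WT, 122 and 121 in KO7, and 168 and 162 in KO8, and Bbc3, the pro-apoptotic PUMA, at 87.7 and 84.7 CPM in WT, 55.1 and 57.7 in KO7, and 80.3 and 78.3 in KO8. Except for Perp, KO8 lay near WT and KO7 below. Cdkn1a, the cell cycle inhibitor p21 and the best known target, had the opposite direction, at 103 and 85.9 CPM in WT, 72.3 and 67.5 in KO7, and 54.1 and 54.7 in KO8, with a difference of -0.37 ± 0.09 (edgeR adjusted p = 0.00345, and 0.0846 without KO7 replicate 1). The stress-induced Gdf15 was the other member called lower.

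Imprinted genes outside the Dlk1-Dio3 cluster had 9 higher and 8 lower of 32, median 0.04, and 5 lower without KO7 replicate 2. Among all genes tested 13.9% were called higher and 14.3% lower. Besides Sfmbt2, the paternally expressed Igf2 was higher in KO8, at 8.36 and 9.92 CPM in WT, 9.14 and 8.64 in KO7, and 21.6 and 20.9 in KO8. Peg10, a retrotransposon-derived placental gene, stood at 839.7 and 842 CPM in WT, 389 and 378 in KO7, and 681 and 657 in KO8, and Peg3, a zinc-finger gene, at 55.7 and 51.3 CPM in WT, 82.4 and 97.1 in KO7, and 138 and 121 in KO8. Gnas, the stimulatory G protein subunit, stood at 199 and 198 CPM in WT, 201 and 205 in KO7, and 122 and 115 in KO8, and Cobl, an actin nucleator, at 588 and 570.1 CPM in WT, 589 and 592 in KO7, and 407 and 405 in KO8. Peg10 was reduced in KO7, Igf2 raised in KO8 and Gnas and Cobl reduced in KO8, each with the other line nearer to WT. The Dlk1-Dio3 cluster, with a median of 1.87 above WT in KO7 and 1.79 in KO8, had 1 of 7 genes called between the lines, and 0 by DESeq2 or without any 1 of the knockout libraries.

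Germline genes had 4 higher and 6 lower of 24, with 2 lower without KO7 replicate 1. These were 16.7% higher and 25% lower (all genes tested: 13.9% higher, 14.3% lower), so the higher calls were near the share of all genes. Tex19.1, a germline gene that restrains retrotransposons and is kept silent by DNA methylation in other cells, stood at 75.4 and 80.7 CPM in WT, 36.9 and 35.1 in KO7, and 90.7 and 91.2 in KO8. Rhox5 stood at 15.7 and 14.8 CPM in WT, 5.97 and 3.91 in KO7, and 14.3 and 16.97 in KO8, Rhox6 at 1.22 and 1.47 CPM in WT, 0.6797 and 0.411 in KO7, and 6.95 and 9.31 in KO8 and Rhox9 at 1.54 and 1.18 CPM in WT, 0.831 and 1.44 in KO7, and 5.37 and 6.21 in KO8. Rhox6 and Rhox9 are related copies in 1 cluster on the X chromosome, and the rule for reads shared between copies is not stated, so their separate values are uncertain. Zcwpw1, a histone methylation reader of meiosis, was lower in KO8 (-1.23 ± 0.16), and Mov10l1, a helicase of the piRNA pathway, too (-0.84 ± 0.14).

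Position on the chromosomes separated the lines as well. Off chromosomes 6 and 8, 12.1% of 12101 tested genes were called lower in KO8 and 13.8% higher. On chromosome 8 from 30 Mb to its end, 347 of 614 tested genes (56.5%) were called lower in KO8 and 31 higher, with a median of -0.36, and these were 18% of all lower calls. The medians of the libraries against the WT mean were 0.335 and 0.323 in KO7 and -0.0212 and -0.0135 in KO8, so KO7 stood apart and KO8 was level with WT. All 9 windows of 10 Mb in that stretch had a median under -0.3. The 122 genes before 30 Mb had a median of 0.08. Among 190 windows off chromosomes 6 and 8 the medians ran from -0.19 to 0.29.

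Chromosome 6, which carries Hmces, differed in its parts (all genes tested: 13.9% higher, 14.3% lower). From 60 Mb on, 118 of 422 genes were higher and 30 lower in KO8, median 0.12, and both lines were below WT, with medians of -0.39 in KO7 and -0.25 in KO8. The lower calls there were 14 to 17 without 1 of the knockout libraries (KO7 replicate 1 gave 14). Before 50 Mb, 60 of 169 genes (35.5%) were lower and 18 higher, median -0.20, and KO8 lay below WT (-0.23) while KO7 did not (0.02). The window from 40 to 50 Mb had a median of -0.40. The number of lower calls before 50 Mb was 35 by DESeq2 and 31 to 37 without 1 of the knockout libraries. The Y chromosome had 3 tested genes, all lower in KO8: Ddx3y stood at 33.7 and 27.99 CPM in WT, 54.5 and 58.2 in KO7, and 18.7 and 19.7 in KO8, Eif2s3y at 26.1 and 25.2 CPM in WT, 41.3 and 40.5 in KO7, and 25.5 and 26.6 in KO8 and Uty at 9.005 and 6.38 CPM in WT, 7.85 and 10.7 in KO7, and 4.42 and 4.85 in KO8. For Ddx3y, an RNA helicase gene, the lines lay on opposite sides of WT, and Uty was not called without KO7 replicate 2 (adjusted p = 0.0595). DNA copy number was not measured in these libraries, so its part in these values was not tested.

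**Figure D4:**
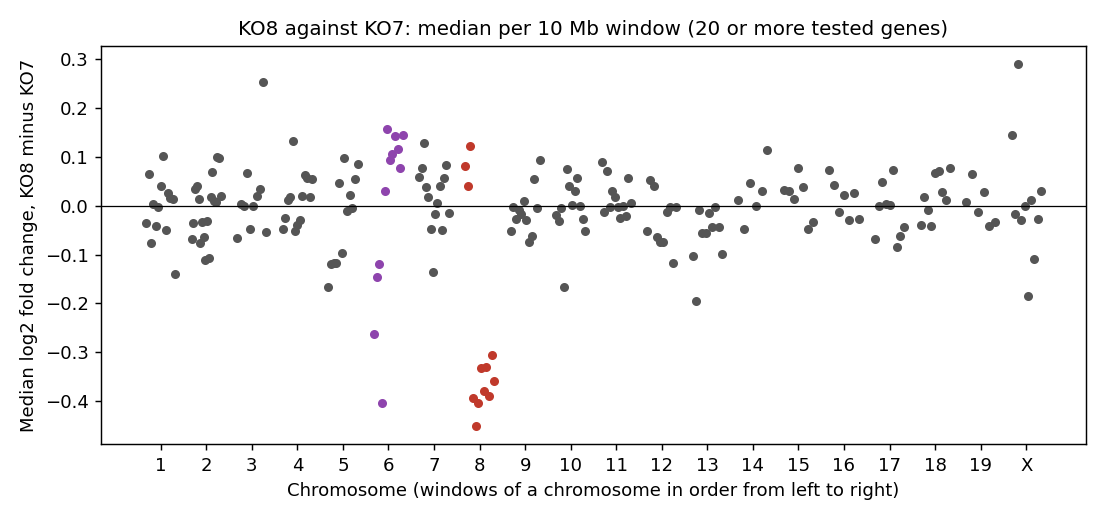
Median log2 fold change, KO8 minus KO7, of each 10 Mb window with at least 20 tested genes, for chromosomes 1 to 19 and X (horizontal axis, windows in order within a chromosome). The windows of chromosome 8 are red and those of chromosome 6 purple: 9 red and 1 purple window lie under -0.3.

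**Figure D5:**
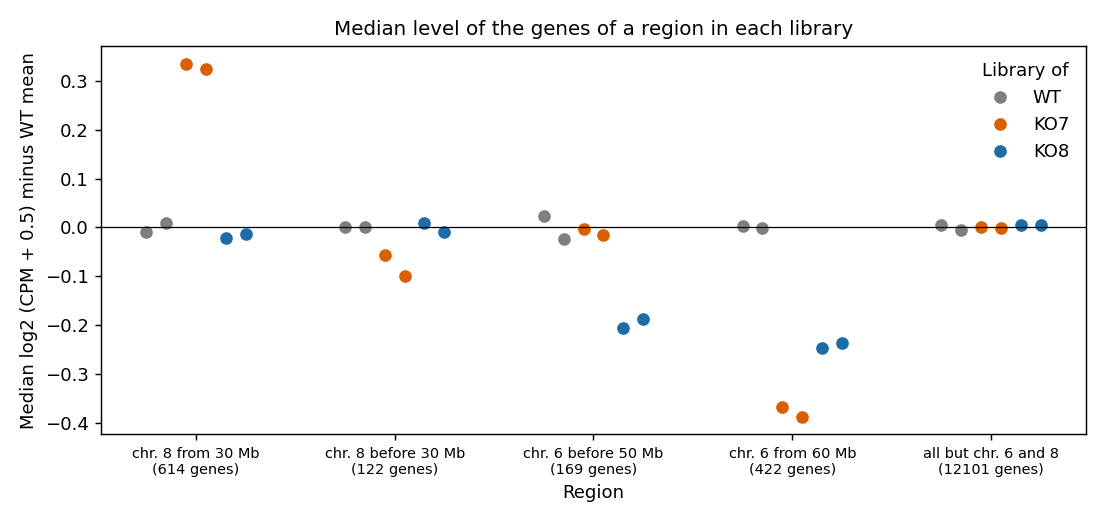
Median over the genes of a region of log2 (CPM + 0.5) minus the WT mean, for each of the 6 libraries. Both KO7 points (orange) lie above 0.3 for chromosome 8 from 30 Mb and the KO8 points (blue) near 0, while for chromosome 6 from 60 Mb both lines lie below WT.

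Several lists held genes of that stretch of chromosome 8. For comparison, 13.9% of all genes tested were called higher in KO8 and 14.3% lower. Replication and mitosis genes had 11 lower and 2 higher of 35, and of 29 members outside the segments of chromosomes 6 and 8, 8 were lower; the count of 11 became 6 or 7 without any 1 of the knockout libraries. Mcm5, a subunit of the replicative helicase on chromosome 8, stood at 469 and 509 CPM in WT, 723 and 713 in KO7, and 473 and 467 in KO8. Cdt1, which loads that helicase, is also there (-0.43 ± 0.05). Detoxification genes under NRF2 had 8 lower and 4 higher of 22. The 8 became 5 without KO7 replicate 1 or KO8 replicate 1, and the 4 became 1 or 2 without any 1 of the knockout libraries. The higher calls of this list were Gstm1, Gstm2, Gstp1 and Gpx2, 3 of them at least 2-fold, against 0 of the lower calls. Nqo1, a quinone reductase on chromosome 8, stood at 34.6 and 36.9 CPM in WT, 50.1 and 49.1 in KO7, and 29.9 and 31.2 in KO8. Nfe2l2, which encodes NRF2 and lies on chromosome 2, stood at 111 and 116 CPM in WT, 172 and 165 in KO7, and 123 and 129 in KO8. The metallothioneins Mt1 and Mt2 are also on chromosome 8 and went against its median, Mt1 with 411 and 468 CPM in WT, 539 and 450 in KO7, and 791 and 745 in KO8. Immediate early genes had 9 higher and 4 lower of 20, with 4 or 5 higher without KO7 replicate 1, KO7 replicate 2 or KO8 replicate 1. Egr1, induced by growth factors, stood at 39.8 and 50.3 CPM in WT, 14.7 and 10.9 in KO7, and 33.5 and 27.8 in KO8, and Jund, on chromosome 8, at 298 and 323 CPM in WT, 408 and 429 in KO7, and 235 and 238 in KO8.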

How the data were processed

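RNA-seq libraries of untreated mouse embryonic stem cells were compared. The authors deposited whole read-pair counts for each gene, made with featureCounts 2.0.1 on mm10 gene models, per the file headers; FastQC 0.11.5, Bowtie2 2.3.3, SAMtools 1.9 and DESeq2 are named per the submitters' processing notes. No filter behind the alignments and no strand setting is stated. The deposited TPM tables were not used here, since their libraries could not be matched to KO7 and KO8. KO7 and KO8 are column names; which labelled knockout line each corresponds to could not be matched from the labels. The columns named ES were taken as WT.

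Counts of 6 libraries (9571113 to 13512922 counts each) were fitted in 3 groups with edgeR 4.0.16 (TMM, its expression filter, quasi-likelihood test, common biological variation 4.74%), which kept 13475 of 25239 genes. DESeq2 1.42.0 and other scalings, filters, libraries and a replicate block were alternatives. The fit was tested on simulated data. Named genes were the 12 largest rises and 12 largest falls among called genes without overlap between the lines. These had a mean of at least 5 CPM over the knockout libraries and no clone or predicted name. The plan added 2 to 4 called members per list and direction, but this was not carried out for every list and direction. Further list members given with values were chosen after their values were seen. Levels of uncalled genes (Pou5f1, Eomes, Gata4, Slc7a11) are given for orientation. The lines, the 41 lists and the segments of chromosomes 6 and 8 were chosen with earlier results of these data known. Promoter sequences are from RefSeq (GRCm38.p6).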

Additional observations from a re-analysis of the deposited data

Results flagged for a closer look

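The genes given here moved to opposite sides of WT in the lines: each line was called and at least 1.5-fold away from WT, and the lines were called and at least 2-fold apart (edgeR). They are 12 of the listed and named genes. All but Krt18 and Ddx3y are among the largest rises or falls, so they met the 2-fold condition by how they were chosen. How many of all tested genes meet the same conditions on size was not counted. Without the conditions on size, 297 of 13475 tested genes were called on opposite sides of WT with the difference between the lines called, 150 of them higher and 147 lower in KO8, and 49 of the 147 lie on chromosome 8 from 30 Mb. The test of the difference is KO8 against KO7. All libraries of WT are shared by the contrasts with WT.

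Higher in KO8 and lower in KO7 than in WT were S100a6 (3.95 between the lines), Wnt7b (3.73), Lad1 (2.87), Stard8 (2.82), Fam167a (2.32) and the keratin gene Krt18 (2.13). For Krt18 the differences from WT were -1.45 ± 0.23 in KO7 and 0.68 ± 0.19 in KO8. Lower in KO8 and higher in KO7 than in WT were Npr3 (-2.69), Cpe (-2.62), Rln3 (-2.10), Smarcd3 (-1.79), Prph (-1.71) and the Y-linked helicase gene Ddx3y (-1.55). For Ddx3y the differences from WT were 0.86 ± 0.10 in KO7 and -0.69 ± 0.11 in KO8. Cpe and Rln3 lie on chromosome 8 from 30 Mb, where the median gene was 0.33 above WT in KO7 and -0.03 in KO8.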

How the results depend on the processing

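The number of calls between the lines (3797) was 2416 by DESeq2, with 1181 higher and 1235 lower, and its count of genes at least 2-fold lower was 161. With a filter of 5 CPM in 2 libraries, which removes low genes, the genes past 2-fold numbered 380 (250 higher, 130 lower). KO8 against WT had 5248 calls in edgeR and 3483 by DESeq2. Leaving out each of the 6 libraries in turn gave 2012 to 5090 calls between the lines, 955 to 2499 higher and 1057 to 2591 lower. The same fits gave 511 to 777 genes past 2-fold (341 to 507 higher, 170 to 270 lower) and 249 to 539 past the tested fold of 1.5. They gave 3088 to 6036 calls for KO7 against WT and 3230 to 6186 for KO8 against WT. A line left with 1 library was assumed to vary like the other groups. With the replicate number as a block (replicate block) 3815 genes were called between the lines, 3727 of them shared with the 3797. Deviations of number 1 libraries from their line means had correlations of 0.000847, -0.0208 and -0.0111 between pairs of groups. Libraries of equal number thus showed no shared deviation in level. Whether a number marks a shared culture or day, the labels do not state. In no fit did a called gene of the lists or named genes change direction. DESeq2 lost the call of 65 of the 324 genes followed, and each fit without 1 of the knockout libraries lost more. The fit without chromosomes 6, 8 and Y, added after the medians by chromosome were seen, called 3085 genes, 3051 of them shared. The higher calls among epithelial genes and the lower calls of the integrated stress response list stayed within 1.5 times in every fit run. Depth limits genes under about 1 CPM, where 1 library has near 10 counts.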

Other observations

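Growth factor and Wnt genes held members that separated the lines in both directions (all genes tested: 13.9% higher, 14.3% lower). The median was 0.18 for the FGF and ERK list, with 31.8% called higher, and -0.13 for the Wnt list. Of 22 genes of the FGF and ERK pathway 7 were called higher and 3 lower in KO8, with 3 higher without KO7 replicate 1 and 4 without KO8 replicate 1. Dusp4, a phosphatase that switches off ERK, lies on chromosome 8 and stood at 24.6 and 27.99 CPM in WT, 29.3 and 29.5 in KO7, and 64.7 and 58.3 in KO8. Spry2, a feedback inhibitor of receptor tyrosine kinases, stood at 204 and 229 CPM in WT, 169 and 166 in KO7, and 274 and 265 in KO8, while Dusp6, another ERK phosphatase, was lower in KO8, at 210.3 and 232 CPM in WT, 235 and 239 in KO7, and 178 and 170.4 in KO8. Etv1, an ETS factor, stood at 11.5 and 12.3 CPM in WT, 22.8 and 20.7 in KO7, and 12.4 and 11.3 in KO8. Known feedback genes of this pathway thus stood on both sides. Of 31 Wnt genes 8 were lower and 5 higher. Among the higher calls Wnt7b was kept without each library in turn, and the 5 became 1 without KO7 replicate 1 and 2 without KO8 replicate 1 or KO8 replicate 2. The receptor genes Fzd3 (-0.75 ± 0.13) and Fzd10 (-0.67 ± 0.09) were lower in KO8 than in KO7 and WT. Sfrp1, a secreted Wnt antagonist, stood at 205 and 191 CPM in WT, 339.9 and 342 in KO7, and 172 and 163 in KO8.

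Of 18 genes for repair of abasic sites and bases, 3 were lower and 1 higher (all genes tested: 13.9% higher, 14.3% lower). The lower calls include Hmces, the knockout target itself. Of 15 members outside the segments of chromosomes 6 and 8, 1 was lower and 0 were higher. The higher call, Ogg1, was lost without KO7 replicate 1 or KO8 replicate 2. Smug1, a uracil glycosylase, stood at 49.6 and 45.7 CPM in WT, 54.4 and 53.3 in KO7, and 37.6 and 34.3 in KO8. Of 30 genes of crosslink, recombination and translesion repair 5 were lower and 1 higher, and leaving out a knockout library left 1 to 3 lower. Cytosolic ribosomal protein genes had 3 higher and 1 lower of 39, median 0.01, and proteasome genes 5 higher and 2 lower of 31, median 0.04 (all genes tested: 13.9% higher, 14.3% lower). Without 1 of the knockout libraries the higher calls were 0 or 1 in both lists. Subunits of the respiratory chain had 11 lower and 0 higher of 40, median -0.12, with 1 to 5 lower without 1 of the knockout libraries. Retinoic acid genes had 3 higher and 2 lower of 11, and 1 higher without KO7 replicate 2 or KO8 replicate 2. Crabp1, which binds retinoic acid in the cytosol, stood at 18.98 and 16.01 CPM in WT, 14.95 and 14.1 in KO7, and 6.002 and 7.56 in KO8. Rara, a retinoic acid receptor, stood at 111 and 108 CPM in WT, 115 and 122 in KO7, and 72.8 and 80.5 in KO8. A set of 4 genes had at least 1 CPM in both libraries of 1 line and no more than 3 counts over the other. Sspo had 15 and 10 counts in KO7 against 2 and 1 in KO8. The other 3 were seen in KO8: Mb with 11 and 13 counts against 0 and 1 in KO7, 3830417A13Rik with 14 and 12 against 1 and 1, and Kctd16 with 10 and 12 against 2 and 1.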
